A study of Mus musculus with 6 samples.

Results

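The genes described here are the ligands, receptors, SMAD proteins, latency proteins and regulators of the transforming growth factor beta (TGF-beta) family, a list of 39 genes measured in splenic CD4+ T cells with and without the cooling compound icilin. All 39 were found among the 22180 genes with a single symbol on the array, and each had 1 such probe set, the group of array probes that gives a gene its value. Members were chosen by name, with earlier results of these data known, among them the fall of Tgfb3. They were sorted by role and compared between the groups. The icilin group consisted of 3 arrays of cells kept for 24 h with 100 µM icilin, a synthetic agonist of TRPM8 and TRPA1, which are cation channels. The vehicle group consisted of 3 arrays of cells kept equally long with the solvent dimethyl sulfoxide (DMSO). In both groups the cells were Wild-type C57BL/6, came from female mice about 8 weeks old, and had been stimulated for 24 h with 10 µg/mL each of antibodies to mouse CD3 and CD28 before the compound or solvent was added. All samples came from 3 mice, which supplied both groups, so every comparison is of icilin on activated cells and none is of resting cells. RNA was hybridised to Mouse Gene 2.0 ST arrays, and levels are log2 values that the authors normalized with the RMA method.

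TGF-beta is secreted in a latent form, held by its own propeptide and by latency proteins until it is released. Released ligands join type II and type I receptor kinases, the type I receptor phosphorylates receptor-regulated SMAD proteins, and these enter the nucleus with the common partner SMAD4. Activins and bone morphogenetic proteins (BMPs) are relatives that use the same layout with other receptors and SMADs. In CD4+ T cells, TGF-beta is known as a brake on proliferation and effector function and as an inducer of regulatory T cells and, with inflammatory cytokines, of Th17 cells.

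Across probe sets, Pearson's r between arrays was 0.990 to 0.991 within a group and 0.989 to 0.990 between the groups. Array medians lay between 4.24 and 4.30, and no array stood apart. CD4 T cell markers were bright, with a mean log2 level of 10.4 to 10.5 over 7 genes in icilin arrays and 10.3 to 10.4 in vehicle arrays, and none of them was called. With 3 arrays a group, precision is limited: the median standard error (SE) of a log2 difference was 0.09.

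Among the 39 members, icilin lowered the mRNA of 2 ligands, Tgfb3 and the activin subunit gene Inhba, while the main T cell ligand gene Tgfb1 and the TGF-beta receptor and SMAD genes did not change by 1.5-fold. A gene is called changed if its limma adjusted p is under 0.1 and its levels differ by 1.5-fold or more, as the study required. By this rule 2 of 39 members fell and 0 rose, the same 2 by significance analysis of microarrays (SAM), the study's test, and over all genes 1.40% were called (1.03% lower, 0.370% higher). Before adjustment, p was under 0.05 in 5 members that were higher and 8 that were lower, together 33.3% of the list, and in 17.1% of all genes (9.09% higher and 8.05% lower). With the adjusted p alone, 5 members were lower and 2 higher, together 17.9% of the list, and 5.28% of all genes passed (3.00% lower and 2.27% higher). Without Tgfb3, whose fall was known when the list was chosen, 2.63% of 38 members were called and 15.8% passed the adjusted p. Since the list was chosen with results known, its shares are not a test of the family. The 3 icilin arrays lay entirely apart from the 3 vehicle arrays in 17 members (43.6%), 10 below and 7 above, and in 24.1% of all genes (10.5% below and 13.6% above). Of the members 21 had a difference below 0, as did 47.0% of all genes. The median log2 difference over the members was -0.03, and over all genes 0.01. In a bulk sample, fewer cells that make an mRNA and less of it per cell cannot be told apart.

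**Figure D1:**
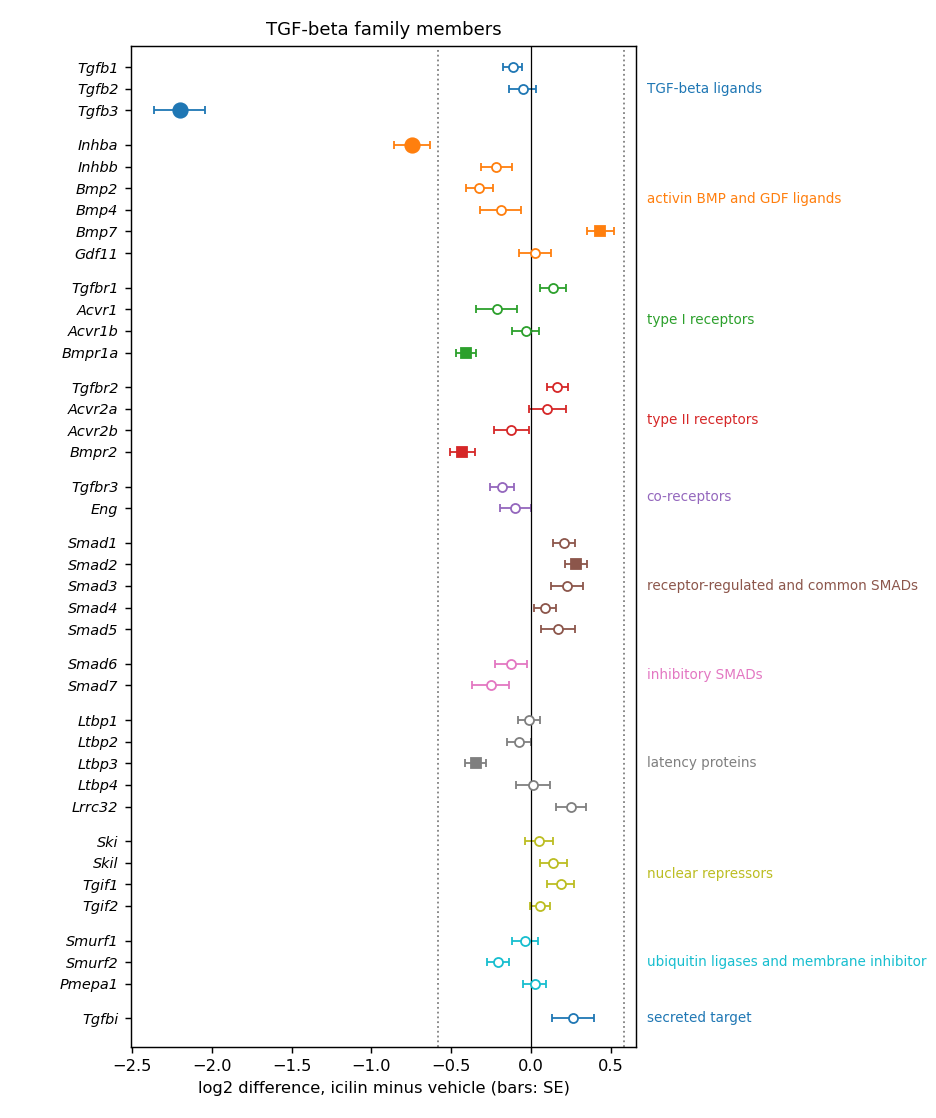
Log2 difference, icilin minus vehicle, of the 39 members by role, with SE bars. Large filled circles are called genes, filled squares pass the adjusted p but not the fold limit, and open circles pass neither; dotted lines mark 1.5-fold. Tgfb3 at -2.20 and Inhba at -0.74 lie past the left line, and the other 37 members lie between the lines.

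Tgfb3 encodes TGF-beta 3, 1 of 3 TGF-beta isoforms that signal through the same receptors. Its log2 levels were 3.85, 4.34 and 4.17 in icilin arrays, against 6.36, 6.07 and 6.54 in vehicle arrays. All icilin arrays were below all vehicle arrays, and the gap between the groups was several times the spread within either. The means were 4.12 ± 0.25 with icilin and 6.32 ± 0.24 with vehicle (SD, n = 3 each), a log2 difference of -2.20 ± 0.16 (SE; limma adjusted p = 0.00126), so the signal with icilin was 0.217 of that with vehicle. This fall ranks at position 1 of 22180 genes, as the study-wide comparison already showed. As a guide to dim signal, 1394 olfactory and vomeronasal receptor genes, which T cells are not known to use, had a median level of 2.02 and a 95th percentile of 4.09. Tgfb3 in icilin arrays stood near that percentile, with 1 array below it.

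Tgfb1 encodes TGF-beta 1, the isoform that lymphocytes mainly produce. It was among the brightest genes, at percentile 98.6, with log2 levels of 10.43, 10.46 and 10.50 in icilin arrays and 10.61, 10.55 and 10.57 in vehicle arrays. The icilin arrays were all slightly below the vehicle arrays, by 0.11 on the log2 scale. That difference did not pass the test (adjusted p = 0.404), and its 95% interval of -0.25 to 0.03 holds no change of 1.5-fold. In the limma fit with an intensity trend and robust variances, the adjusted p of the same difference was under 0.1 (0.0805).

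Tgfb2 encodes the third isoform, TGF-beta 2. Its log2 levels were 3.67, 3.81 and 3.67 in icilin arrays and 3.78, 3.64 and 3.88 in vehicle arrays. The groups overlapped and all values lay below the dim benchmark of 4.09 (-0.05 ± 0.08, adjusted p = 0.812).

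Tgfb3 was also set against Tgfb1 within each array. The log2 difference Tgfb3 minus Tgfb1 averaged -6.35 ± 0.23 in icilin arrays and -4.26 ± 0.22 in vehicle arrays (SD, n = 3 each), a shift of -2.09. Every icilin array lay below every vehicle array, and the exact permutation test, two-sided, gave p = 0.1, the smallest p that 3 against 3 arrays allow. The fall of Tgfb3 was known beforehand, so this outcome adds no support of its own. The shift describes the change between groups and not the amounts of the isoforms, since each probe set has its own brightness. The same difference against Tgfb2 is not given, because Tgfb2 lay below the dim benchmark on all 6 arrays.

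**Figure D2:**
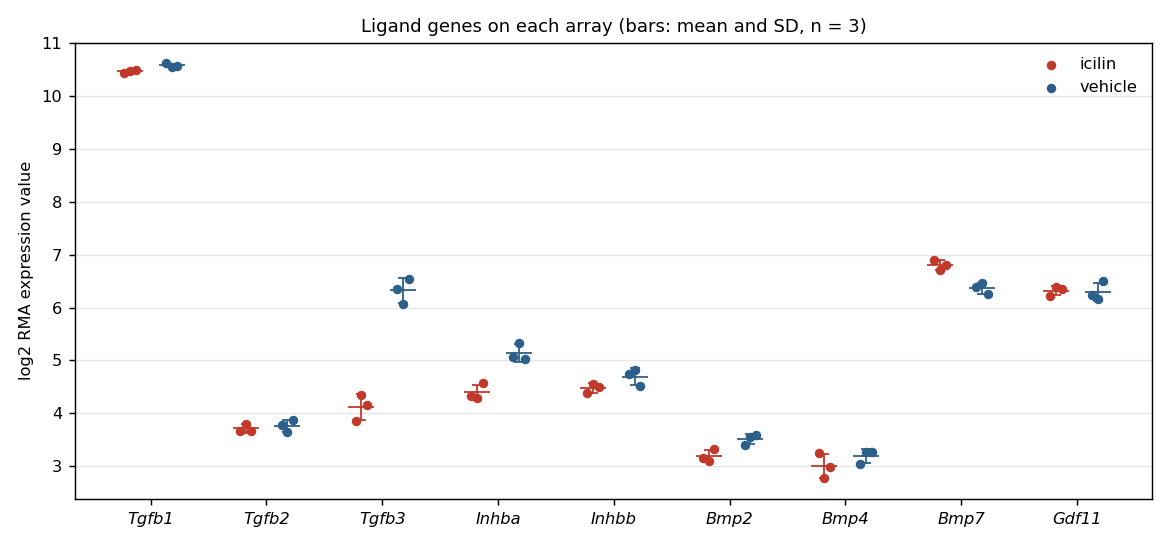
Log2 level of the 9 ligand genes on each array, icilin left of vehicle, with mean and SD (n = 3 a group). Tgfb3 and Inhba show 3 icilin arrays clear of and below 3 vehicle arrays, Bmp7 shows the icilin arrays above, and Tgfb1 stays at 10.4 to 10.6 in all 6.

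Inhba encodes the beta A subunit, which forms activin A, an activator of SMAD2 and SMAD3. Its log2 levels were 4.33, 4.29 and 4.57 in icilin arrays, against 5.07, 5.34 and 5.02 in vehicle arrays. The groups did not overlap, and the gene fell by 0.74 on the log2 scale (SE 0.11; adjusted p = 0.0191), to 0.597 of the vehicle signal. Inhbb, which encodes the beta B subunit of activin B, averaged 4.48 with icilin and 4.70 with vehicle, with overlapping groups (adjusted p = 0.317). Among BMP and growth differentiation factor genes none was called.

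Bmp7 was the only ligand gene past the adjusted p in the upward direction. Its log2 levels were 6.89, 6.71 and 6.81 in icilin arrays and 6.39, 6.46 and 6.25 in vehicle arrays, a difference of 0.44 ± 0.08 (adjusted p = 0.0415), which is 1.35-fold. The groups did not overlap, but the change was short of 1.5-fold, and the adjusted p stayed under 0.1 in only 2 of 6 fits with 1 array left out (0.0801 to 0.142). It passed without icilin replicate 2 or vehicle replicate 2. Bmp2, at 3.20 ± 0.11 with icilin and 3.52 ± 0.10 with vehicle, also had separate groups and missed the limit (-0.32, adjusted p = 0.118). Both its means and those of Bmp4 (3.01 with icilin and 3.19 with vehicle, adjusted p = 0.516) were below the dim benchmark. Gdf11, an activin-like ligand gene, stood at 6.32 with icilin and 6.30 with vehicle (adjusted p = 0.933).

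Limma and SAM called 0 of the 10 receptor genes, and at an unadjusted p under 0.05 1 was higher and 3 lower (17.1% of all genes, either direction). The 2 kinases that bind TGF-beta itself, encoded by Tgfbr2 (type II) and Tgfbr1 (type I), were measured at moderate brightness. Tgfbr2 had log2 levels of 7.51, 7.61 and 7.61 in icilin arrays and 7.43, 7.35 and 7.45 in vehicle arrays. The icilin arrays were all above the vehicle arrays, by 0.17 ± 0.07 (adjusted p = 0.264; 95% interval 0.01 to 0.32). Tgfbr1 averaged 6.07 ± 0.06 with icilin and 5.94 ± 0.13 with vehicle, with overlapping groups (0.14, adjusted p = 0.468; 95% interval -0.06 to 0.33). For both receptors the interval ended well short of 1.5-fold, which is 0.58 on the log2 scale.

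The 2 receptor genes that passed the adjusted p both encode BMP receptors and were both lower. Bmpr2, the type II BMP receptor gene, had log2 levels of 7.48, 7.35 and 7.48 in icilin arrays, against 7.81, 7.80 and 7.98 in vehicle arrays (-0.43 ± 0.08, adjusted p = 0.0364). Bmpr1a, a type I BMP receptor gene, had 5.12, 5.14 and 5.25 in icilin arrays, against 5.56, 5.58 and 5.59 in vehicle arrays (-0.41 ± 0.06, adjusted p = 0.0221). In both genes the groups did not overlap, and signals with icilin were 0.743 and 0.755 of vehicle, short of the fold limit. Bmpr1a stayed past the adjusted p in 6 of 6 fits with 1 array left out. Bmpr2 stayed past it in 3 of 6, and lost it when icilin replicate 1, replicate 2 of the same group or vehicle replicate 3 was left out (adjusted p 0.104 to 0.127).

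The other receptor genes did not pass. Acvr1b, the type I activin receptor gene, averaged 6.63 with icilin and 6.67 with vehicle (adjusted p = 0.884). The type II genes Acvr2a (5.01 with icilin and 4.91 with vehicle) and Acvr2b (4.26 with icilin and 4.38 with vehicle) and the type I BMP receptor gene Acvr1 (4.19 with icilin and 4.41 with vehicle) had overlapping groups, with adjusted p of 0.713, 0.631 and 0.463. Of the co-receptor genes, Tgfbr3, which encodes betaglycan, a protein that presents TGF-beta to its receptors, averaged 7.76 ± 0.03 with icilin and 7.94 ± 0.11 with vehicle. Its groups did not overlap (-0.18, adjusted p = 0.280). The endoglin gene Eng averaged 6.11 with icilin and 6.21 with vehicle and overlapped (adjusted p = 0.683).

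**Figure D3:**
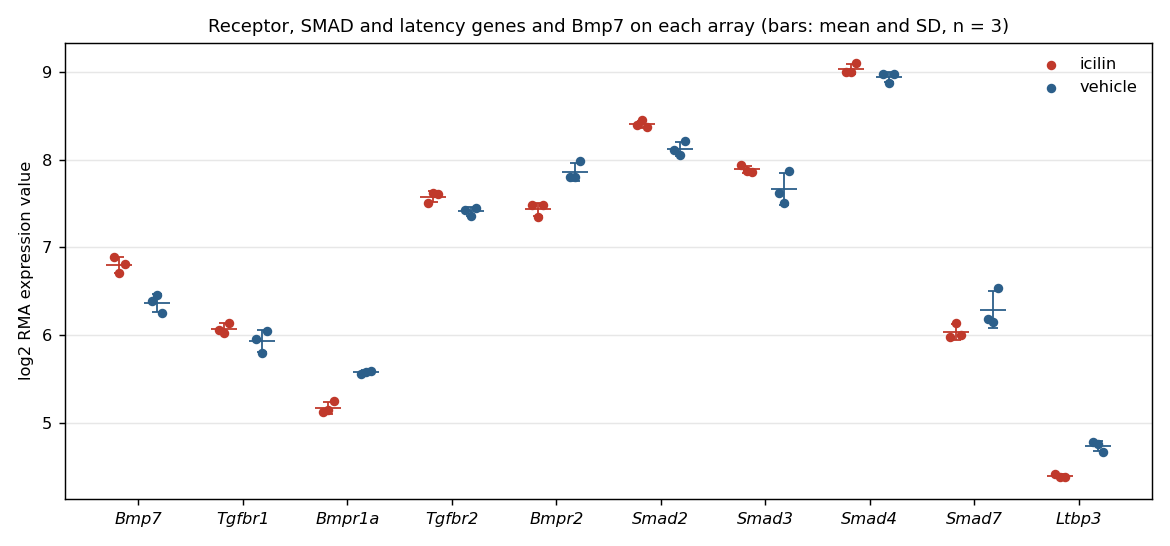
Log2 level on each array of Bmp7, the TGF-beta and BMP receptor genes, SMAD genes and Ltbp3, icilin left of vehicle, with mean and SD (n = 3 a group). Bmpr1a, Bmpr2 and Ltbp3 have the icilin arrays below the vehicle arrays, Bmp7 and Smad2 have them above, and Smad3 and Tgfbr1 overlap.

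Limma and SAM called 0 of the 7 SMAD genes, and at an unadjusted p under 0.05 2 were higher and 0 lower (17.1% of all genes, either direction). All 5 receptor-regulated and common SMAD genes had differences above 0, with a median of 0.21, and 1 of them, Smad2, passed the adjusted p. Smad2, a mediator of TGF-beta and activin signals, had log2 levels of 8.40, 8.45 and 8.37 in icilin arrays and 8.11, 8.06 and 8.21 in vehicle arrays. The groups were separate (0.28 ± 0.07, adjusted p = 0.0903), but the adjusted p was above 0.1 in 6 of 6 fits with 1 array left out (0.114 to 0.244). Its fellow mediator gene Smad3 had 7.94, 7.87 and 7.86 in icilin arrays and 7.62, 7.51 and 7.87 in vehicle arrays, and vehicle replicate 3 overlapped the icilin arrays (adjusted p = 0.308).

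The common partner gene Smad4 averaged 9.03 ± 0.06 with icilin and 8.94 ± 0.06 with vehicle (adjusted p = 0.582). The BMP mediator genes Smad1 (5.86 ± 0.04 with icilin and 5.66 ± 0.08 with vehicle, adjusted p = 0.192) and Smad5 (5.47 ± 0.07 with icilin and 5.30 ± 0.19 with vehicle, adjusted p = 0.476) did not pass either. The inhibitory SMAD genes, which TGF-beta and BMP signals induce as feedback, had differences below 0. Smad7 had log2 levels of 5.97, 6.14 and 6.00 in icilin arrays and 6.19, 6.14 and 6.53 in vehicle arrays. The highest icilin array and the lowest vehicle array both rounded to 6.14, and the difference of -0.25 did not pass (adjusted p = 0.332). Smad6 averaged 3.65 with icilin and 3.78 with vehicle, both below the dim benchmark (adjusted p = 0.590).

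Latency proteins hold TGF-beta outside the cell or on its surface, and limma and SAM called 0 of their 5 genes. The unadjusted p was under 0.05 in 1 higher and 1 lower (17.1% of all genes, either direction). Ltbp3, which encodes latent TGF-beta binding protein 3, had log2 levels of 4.42, 4.38 and 4.38 in icilin arrays, against 4.78, 4.76 and 4.67 in vehicle arrays. The groups were separate and the difference of -0.35 ± 0.06 passed the adjusted p (0.0342) without reaching 1.5-fold. It stayed past in 2 of 6 fits with 1 array left out, those without vehicle replicate 1 or vehicle replicate 3. The other binding protein genes, Ltbp1, Ltbp2 and Ltbp4, differed by -0.08 to 0.01 with overlapping groups, and adjusted p were 0.677 to 0.961.

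Lrrc32 encodes GARP, which anchors latent TGF-beta on regulatory T cells and platelets. Its log2 levels were 6.58, 6.57 and 6.85 in icilin arrays and 6.37, 6.39 and 6.50 in vehicle arrays, with separate groups that did not pass the test (0.25 ± 0.09, adjusted p = 0.239). Beside it, the mean log2 level of 6 regulatory T cell markers was 9.30 to 9.34 in icilin arrays and 9.50 to 9.55 in vehicle arrays. On that list Ctla4, an inhibitory receptor gene, fell (-0.69). Tnfrsf18 and Tnfrsf4, costimulatory receptor genes named after their values were seen, passed the adjusted p lower (-0.38 and -0.30). The lineage factor gene Foxp3 differed by 0.29 (adjusted p = 0.126). The list's remaining markers, Ikzf2 and Il2ra, each differed by -0.04 (adjusted p of 0.821 and 0.786). The mean of 5 platelet markers was 3.50 to 3.71 in icilin arrays and 3.71 to 3.90 in vehicle arrays, with none called. Their part in the Lrrc32 values was not tested.

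Promoter windows are shown for 4 of the 7 members past the adjusted p, all of them lower with icilin, to let their sequences be compared. No window is shown for Tgfb3, Bmp7 and Smad2, so both higher members are missing. The promoter reference held no entry for Tgfb3 and Bmp7, and the Smad2 window lay on a chromosome that was set aside. The 4 shown therefore do not stand for all 7. Each line gives the 250 bases before the annotated RefSeq start on the gene's strand (build GRCm38.p6), and RefSeq promoters matched 29 of the 39 members. Capitals mark matches on either strand to 5 letter strings, CAGAC and GTCTAGAC (SMAD boxes), GGCGC (a GC-rich SMAD site) and ACGTG and GCGTG (hypoxia response cores).
Inhba, chr13:16011601-16011850, plus strand: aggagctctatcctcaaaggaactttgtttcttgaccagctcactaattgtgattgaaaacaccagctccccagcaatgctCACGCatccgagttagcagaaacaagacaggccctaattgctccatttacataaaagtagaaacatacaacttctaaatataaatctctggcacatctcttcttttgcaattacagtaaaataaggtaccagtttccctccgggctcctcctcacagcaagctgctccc
Bmpr1a, chr14:34502547-34502796, minus strand: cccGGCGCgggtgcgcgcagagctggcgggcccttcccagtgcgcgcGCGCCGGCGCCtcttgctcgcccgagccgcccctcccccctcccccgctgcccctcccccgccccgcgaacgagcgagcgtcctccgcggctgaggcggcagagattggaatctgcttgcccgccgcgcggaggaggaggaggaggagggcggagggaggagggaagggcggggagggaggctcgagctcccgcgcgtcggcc
Bmpr2, chr1:59764029-59764278, plus strand: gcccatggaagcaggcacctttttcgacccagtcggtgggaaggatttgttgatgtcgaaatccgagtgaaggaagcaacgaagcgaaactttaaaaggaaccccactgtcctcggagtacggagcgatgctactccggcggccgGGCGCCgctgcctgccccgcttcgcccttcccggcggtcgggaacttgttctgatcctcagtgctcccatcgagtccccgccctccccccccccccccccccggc
Ltbp3, chr19:5740650-5740899, plus strand: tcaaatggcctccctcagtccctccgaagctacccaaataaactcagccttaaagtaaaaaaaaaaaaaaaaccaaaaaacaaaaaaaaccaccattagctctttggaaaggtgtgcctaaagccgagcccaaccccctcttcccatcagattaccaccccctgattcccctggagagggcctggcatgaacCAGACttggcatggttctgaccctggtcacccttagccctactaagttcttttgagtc

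The 4 windows had no string in common. Inhba held GCGTG on the other strand, 169 to 165 bases before the start, and Ltbp3 held CAGAC, 58 to 54 bases before it. Both BMP receptor windows held GGCGC, Bmpr2 in 1 overlapping pair on both strands and Bmpr1a in 4 matches, of which 3 overlap or adjoin. Of 32851 promoter windows of the same length, 42.2% held CAGAC, 0.167% GTCTAGAC, 32.0% GGCGC, 16.6% ACGTG and 28.2% GCGTG. The strings matched here are thus common, and a match does not by itself mark a binding site. Binding was not tested.

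Limma and SAM called 0 of 8 genes for nuclear repressors, ubiquitin ligases, a membrane inhibitor and a secreted target, and 0 passed the adjusted p. The unadjusted p was under 0.05 in 0 higher and 1 lower (17.1% of all genes, either direction). The repressor genes Ski and Skil, whose proteins bind SMADs and block their transcription, did not pass. Ski averaged 7.30 ± 0.05 with icilin and 7.25 ± 0.14 with vehicle (adjusted p = 0.813), and Skil 6.79 ± 0.01 with icilin and 6.65 ± 0.14 with vehicle (adjusted p = 0.454). The homeobox repressor gene Tgif1 had log2 levels of 6.43, 6.44 and 6.66 in icilin arrays and 6.36, 6.35 and 6.26 in vehicle arrays, separate but short of the test (0.19, adjusted p = 0.313). Tgif2 differed by 0.06 (adjusted p = 0.719).

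Smurf2, a ubiquitin ligase gene whose protein marks TGF-beta receptors for breakdown, had log2 levels of 8.43, 8.37 and 8.37 in icilin arrays and 8.62, 8.50 and 8.66 in vehicle arrays. The icilin arrays were all below the vehicle arrays without passing the test (-0.21 ± 0.07, adjusted p = 0.196). Its relative Smurf1 averaged 6.77 with icilin and 6.80 with vehicle (adjusted p = 0.874). Pmepa1, a TGF-beta induced gene whose membrane protein binds receptor-regulated SMADs, averaged 7.89 ± 0.06 with icilin and 7.87 ± 0.07 with vehicle (adjusted p = 0.901; 95% interval of the difference -0.14 to 0.19). Tgfbi, which encodes a secreted matrix protein named for its induction by TGF-beta, averaged 4.05 ± 0.14 with icilin and 3.79 ± 0.23 with vehicle, with both means below the dim benchmark (adjusted p = 0.361).

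Of 88 measured genes from a list of 94 other pathway genes, 3 fell, 0 rose and 85 were not called, by limma and likewise by SAM. The calls were 3.41% of the 88, against 1.40% of all genes. The unadjusted p was under 0.05 in 7 higher and 9 lower, or 18.2%, close to the 17.1% of all genes. The largest fall was that of Furin, the protease gene whose product cuts the TGF-beta propeptide from the ligand. Furin had log2 levels of 8.41, 8.49 and 8.54 in icilin arrays, against 9.22, 9.40 and 9.34 in vehicle arrays, a difference of -0.84 ± 0.08 (adjusted p = 0.00275). Runx3, a transcription factor gene whose product partners with SMADs, averaged 7.37 ± 0.09 with icilin and 8.18 ± 0.06 with vehicle (-0.81 ± 0.07, adjusted p = 0.00277). In both genes all icilin arrays lay far below all vehicle arrays, and the calls held in 6 of 6 fits with 1 array left out.

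The third was Acvrl1, a type I receptor gene known best from endothelium, at 4.75 ± 0.09 with icilin and 5.36 ± 0.29 with vehicle (-0.61, adjusted p = 0.0818). Its call held in 1 of 6 such fits, the one without vehicle replicate 1, and elsewhere the adjusted p was 0.132 to 0.214. Beside it, the 8 stromal and endothelial markers had a mean log2 level of 4.46 to 4.57 in icilin arrays and 4.38 to 4.55 in vehicle arrays. Thbs1, whose protein thrombospondin 1 can free latent TGF-beta, passed the adjusted p and lay just short of 1.5-fold (-0.58 ± 0.14, adjusted p = 0.0843). It was called without vehicle replicate 1 (-0.71). The other 5 such fits all missed the adjusted p (0.112 to 0.227). Rbl1, which encodes the SMAD partner p107, was 0.27 higher (adjusted p = 0.0731), and passed in 0 of 6 such fits.

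Lists without a gene past the adjusted p are represented by the member with the smallest p. These were the ligand gene Gdf7 (-0.34, adjusted p = 0.257; 23 genes measured), the activin inhibitor gene Fstl3 (-0.44, adjusted p = 0.154; 12 genes), the SMAD phosphatase gene Ppm1a (0.14, adjusted p = 0.364; 12 genes) and the kinase gene Mapk14 (0.23, adjusted p = 0.107; 7 genes). The median difference over the 88 genes was 0.01, as it was over all 22180 genes.

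Genes known to respond to TGF-beta or BMP were mixed in direction. Of 20 measured genes that these ligands are known to induce, 3 fell, 0 rose and 17 were not called, by limma and likewise by SAM. The unadjusted p was under 0.05 in 1 higher and 4 lower, or 25%, against 17.1% of all genes, and the median difference was -0.10. The 3 calls were 15% of the list, against 1.40% of all genes. The 3 were the cell cycle inhibitor gene Cdkn1a (10.2 with icilin and 11.1 with vehicle, -0.84 ± 0.08), the AP-1 gene Junb (9.45 with icilin and 10.1 with vehicle, -0.63 ± 0.07) and the repressor gene Bhlhe40 (10.5 with icilin and 11.1 with vehicle, -0.60 ± 0.06), with adjusted p of 0.00277, 0.00604 and 0.00484. The call of Bhlhe40 ended without vehicle replicate 3 (-0.56).

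Of 15 genes that TGF-beta is known to repress in T cells, 4 fell, 2 rose and 9 were not called, with a median of -0.19. SAM also called 6. The calls were 40% of the list, against 1.40% of all genes. At an unadjusted p under 0.05, 3 were higher and 6 lower, or 60%, against 17.1% of all genes. The cytotoxic genes Gzma (-1.46), Gzmb (-0.76) and Prf1 (-0.68) and the cytokine gene Il5 (-0.59, adjusted p = 0.0513) fell, and Cxcr3, which encodes a chemokine receptor (0.79), and Eomes, which encodes a transcription factor (0.67), rose. The Th1 regulator gene Tbx21 was 0.47 higher (adjusted p = 0.0191), short of 1.5-fold. The call of Il5 held in 1 of 6 fits with 1 array left out, the one without icilin replicate 2. The others gave -0.63 to -0.49, with adjusted p of 0.125 to 0.162. Both response lists were drawn up with study-wide results for several of these genes known, and a gene's response to icilin is not a measure of TGF-beta activity.

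**Figure D4:**
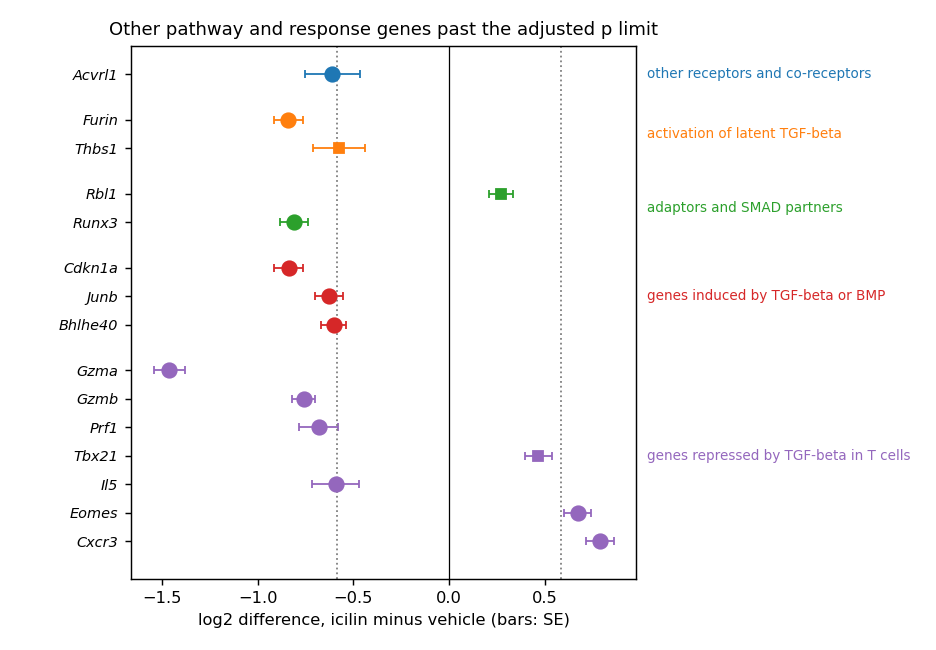
Log2 difference, icilin minus vehicle, with SE bars, of the other pathway and response genes past the adjusted p limit, by list. Large circles are called genes, squares are short of 1.5-fold, and dotted lines mark 1.5-fold; Gzma at -1.46 is farthest left and Cxcr3 at 0.79 farthest right.

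Markers of other cell types were averaged as lists. The mean log2 level of 8 myeloid markers was 3.98 to 4.15 in icilin arrays and 4.03 to 4.07 in vehicle arrays. The mean of 6 B cell markers was 4.85 to 4.91 in icilin arrays and 4.60 to 4.64 in vehicle arrays, and 1 of them, Ms4a1, rose (1.01). On 5 markers of CD8 T and natural killer cells the mean was 4.09 to 4.21 in icilin arrays and 4.18 to 4.34 in vehicle arrays. On 6 dendritic cell markers it was 4.66 to 4.72 in icilin arrays and 4.64 to 4.74 in vehicle arrays, and on 2 red cell markers 4.28 to 4.46 in icilin arrays and 4.56 to 4.68 in vehicle arrays. On the 7 marker lists other than those of B cells and regulatory T cells, with 41 genes, limma and SAM called 0. Before adjustment p was under 0.05 for 4 higher and 7 lower genes, and for 17.1% of all genes in either direction. Of these 41 genes, 3 passed the adjusted p short of 1.5-fold, and they are named because of their values. Of all genes 5.28% passed the adjusted p. The 3 were Cd28, the T cell costimulatory receptor gene (0.34, adjusted p = 0.0529), Batf3, a transcription factor gene on the dendritic cell list (0.47, adjusted p = 0.0240), and Klrd1, a natural killer cell receptor gene (-0.27, adjusted p = 0.0843). The part of such cells in the changes of Tgfb3 and Inhba was not tested.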

How the data were processed

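Gene expression was measured on 6 GeneChip Mouse Gene 2.0 ST arrays, 3 per group. Per the labels' protocols, 0.25 µg of total RNA went into each labelling, and its integrity number had to reach 8. Values in the deposited table are on the log2 scale and come from the authors' RMA step, per the series design text and the submitters' processing notes. RMA corrects background, equalises the arrays' distributions and summarises probes, so it hides a shift shared by most genes and compresses differences of dim genes. A genome build is not given in the sources used here.

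Of 41345 probe sets, 23521 had 1 gene symbol, 1814 several and 16010 none. Those with 1 symbol were used, and the brightest over all arrays was kept where a gene had more than 1 (1082 genes), leaving 22180 genes. Icilin minus vehicle was fitted with limma 3.58.1 in R 4.3.3 (lmFit, eBayes, no trend, two-sided, 4 residual and 3.07 prior degrees of freedom), and adjusted p are Benjamini-Hochberg over all genes. Errors are SE of differences and SD of levels. The design says that both groups came from 3 mice without tying replicate numbers to mice, so no block was used in the main comparison. Same-numbered arrays did not deviate together (r of -0.02 to -0.01). SAM was rewritten with 20 permutations. Limma and SAM were tested on simulated data. Figures were made with Python 3.11.15 and matplotlib 3.10.9.

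All 39 members are described. Of the other pathway and response lists, called genes, genes past the adjusted p and, where a list had neither, the gene with the smallest p are named. Marker lists are given by their means, with the genes past the adjusted p. Members and lists were chosen with earlier results of these data known. Alternatives were the replicate block, trend and robust variances, centring, quantile normalization, a dim-gene filter, probe set means, every probe set fitted, each array left out, other limits and SAM.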

Additional observations from a re-analysis of the deposited data

How the results depend on the processing

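Tgfb3 and Inhba, and no other member, were called under 15 of the 16 alternatives. With the adjusted p under 0.1 and no fold limit the counts were 7 members, 1170 of all genes and 5 other pathway genes, because that rule drops a criterion. The Tgfb3 difference ranged over -2.33 to -2.07, with an adjusted p of at most 0.0154. With the replicate number as a block, 2 members were called (Tgfb3 -2.20, adjusted p = 0.0154; Inhba -0.74, adjusted p = 0.0864), 283 of all genes, 2 other pathway genes (without Acvrl1) and 8 response genes (without Il5). Past the adjusted p alone, 4 members remained with the block, and Bmp7, Smad2 and Ltbp3 did not (adjusted p 0.121 to 0.217). The numbers are not known to mark mice. Bmp7, Bmpr2, Smad2 and Ltbp3 also missed the adjusted p when every probe set was fitted (0.114 to 0.219), a fit over more features. Acvrl1 and Il5 lost their calls in that fit (adjusted p of 0.200 and 0.145). Smad2 missed it with quantile normalization (0.130), and Il5 lost its call with arrays centred (-0.582) or quantile normalized (-0.579), by the fold limit.

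With 1 array left out the counts were 2 for members, 279 to 328 for all genes, 2 to 4 for other pathway genes and 7 to 9 for response genes. The signs of 8 small differences turned in such fits: Tgfb2 (-0.11 to 0.0046), Gdf11 (-0.0387 to 0.122), Acvr1b (-0.0972 to 0.0170), Ltbp1 (-0.0382 to 0.0245), Ltbp4 (-0.0646 to 0.0793), Ski (-0.0216 to 0.116), Smurf1 (-0.0921 to 0.0356) and Pmepa1 (-0.0035 to 0.0627). The other 31 members kept their sign under every alternative run. The shift of Tgfb3 against Tgfb1 ranged over -2.20 to -1.97. In each setting tested the exact test gave p = 0.1, the smallest p that these arrays allow. Its constancy is therefore no measure of robustness. Ltbp3 and 10 further members lie below the median brightness and had no value with dim genes left out. Signal near the dim benchmark limits what the Tgfb2, Bmp2, Bmp4, Smad6, Ltbp1 and Tgfbi values can show. Tgfb3 with icilin, at a mean of 4.12, also lay near the benchmark of 4.09. That limits how exactly its signal ratio of 0.217 can be read.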

Other observations

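Probe sets with several symbols were left out of the comparisons, and 3 of them carry a member's symbol together with that of a second gene. The one shared by Bmpr2 and Gm20272 averaged 5.10 ± 0.31 with icilin and 5.59 ± 0.28 with vehicle (SD, n = 3 each), a log2 difference of -0.49 ± 0.20 (SE). That is close to the -0.43 of the Bmpr2 probe set itself, but its adjusted p over all probe sets was 0.421. The one shared by Ltbp2 and D030025P21Rik differed by -0.02 and the one shared by Tgif2 and 5430405H02Rik by 0.20, with adjusted p of 0.984 and 0.593.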
